A study of Mus musculus with 18 samples.

Results

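The endothelial and VEGF pathway genes described here were 10 genes taken by symbol from the deposited expression values of mouse kidney cortex: Vegfa, Kdr, Flt1, Tek, Pecam1, Cdh5, Emcn, Ehd3, Plvap and Vwf. All 10 were found among the 15035 genes measured. The study profiled 18 libraries by RNA sequencing, 3 in each of 6 groups, and its title names combination therapy for lupus nephritis. Vehicle-treated MRL/MpJ wild type mice served as the healthy group. The remaining 5 groups were MRL/lpr mice on vehicle, MMF (mycophenolate mofetil, which blocks guanine nucleotide synthesis), FK506 (tacrolimus, a calcineurin inhibitor), prednisone (a glucocorticoid) or a multi-target treatment. All MRL/lpr mice, drug-treated or not, carry the lpr mutation of Fas, which leads to lymphoproliferation and lupus-like kidney disease. The labels used here give no age, sex or dose, and do not name the drugs of the multi-target treatment. They number the libraries without saying that each came from a separate animal, so p-values measure the spread between these libraries, called mice below. Titles of the healthy libraries follow another pattern than those of the MRL/lpr libraries, and any difference in handling behind that cannot be told apart from strain.

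Vascular endothelial growth factor A, encoded by Vegfa, is made in the kidney mainly by podocytes and tubular epithelium and acts on the endothelium beside them. Its main signalling receptor is VEGFR2 (Kdr), while VEGFR1 (Flt1) binds the ligand tightly and also exists as a soluble form that traps it. Glomerular and peritubular capillaries are fenestrated and depend on this signal, and the angiopoietin receptor Tie2 (Tek) acts in parallel to keep endothelium quiescent. Each value below is the log2 expression value that the authors deposited for a gene symbol, where a difference of 1 is a doubling. The values carry no correction for gene length, so levels are compared between groups within a gene and never between genes.

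In GENCODE vM21 on GRCm38, the build also called mm10, the 10 members are protein-coding genes spread over chromosomes 3, 4, 5, 6, 8, 11 and 17. Kdr (chr5:75932827-75978458, minus strand) and Flt1 (chr5:147561604-147726011, minus strand) share a chromosome, and Vegfa lies at chr17:46016993-46032369 on the minus strand. RefSeq promoter entries on GRCm38.p6 were matched for 6 of the 10 members, namely Emcn, Tek, Kdr, Flt1, Vegfa and Ehd3. The 250 bases before the start of the VEGF ligand and its 2 receptors are shown because these genes form the signalling axis described first below. They read 5′ to 3′ on the strand of the gene, with GC boxes (GGGCGG or its reverse complement) in capitals. The windows are chr5:75978456-75978705 for Kdr, chr5:147726012-147726261 for Flt1 and chr17:46032378-46032627 for Vegfa, all on the minus strand.
Kdr: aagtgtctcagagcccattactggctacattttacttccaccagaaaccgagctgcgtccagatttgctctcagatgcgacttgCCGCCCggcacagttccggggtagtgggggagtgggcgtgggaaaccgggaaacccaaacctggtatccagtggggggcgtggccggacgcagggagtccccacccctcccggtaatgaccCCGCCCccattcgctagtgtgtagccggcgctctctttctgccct
Flt1: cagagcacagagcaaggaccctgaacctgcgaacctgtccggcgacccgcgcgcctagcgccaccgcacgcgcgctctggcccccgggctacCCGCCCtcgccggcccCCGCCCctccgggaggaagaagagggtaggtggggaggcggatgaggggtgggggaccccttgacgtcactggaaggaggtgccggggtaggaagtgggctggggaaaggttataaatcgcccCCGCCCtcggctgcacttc
Vegfa: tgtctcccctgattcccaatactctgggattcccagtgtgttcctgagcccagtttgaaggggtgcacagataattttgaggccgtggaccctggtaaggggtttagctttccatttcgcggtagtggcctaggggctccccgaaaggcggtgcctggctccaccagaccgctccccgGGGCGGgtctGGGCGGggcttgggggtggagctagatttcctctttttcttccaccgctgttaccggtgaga
Kdr had 2 matches, Flt1 had 3 and Vegfa had 2, and the windows of Tek, Emcn and Ehd3 had 0. RefSeq lists a further Vegfa start, whose window (chr17:46025164-46025413) had 1 match and is not shown. Among 32536 distinct promoters of the same length, 33.0% held at least 1 GC box. A match is a description of these letters only, and a window without one says nothing about the factors that bind it.

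Some libraries stood apart before any gene was compared. The gene values of the libraries, turned back into reads, summed to between 28939845 and 41066953, and the members stood at between 311 reads (the lowest Vwf value) and 5634 reads (the highest Plvap value). Proximal tubule and podocyte markers were present in all 18 libraries, as kidney cortex should hold. In vehicle mouse 36 the summed proximal tubule markers were at 18.14 on the log2 scale (19.39 and 19.52 for mice 7 and 17), and thick ascending limb and distal tubule markers were at 17.003 against 18.65 and 18.49. Leukocyte markers in the same library were at 14.80, against 14.04 and 14.53. Adipose markers reached 14.21 in vehicle mouse 17 and 6.79 and 6.60 in the other two of that group, and adrenal markers reached 14.03 in FK506 mouse 12. These values move with some results below, and their part in them was not tested. In bulk tissue, fewer cells of a type and less RNA per cell cannot be told apart.

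None of the 10 endothelial and VEGF genes passed the test in any of the 15 pairwise comparisons of the 6 groups. In diseased against healthy kidney, 0 of 10 were called by limma at an adjusted p of 0.05, while 22.4% of all genes were called. Group differences were small: the largest rise on average was Plvap (0.27) and the largest fall Vegfa (-0.45), and the median over the 10 members was -0.05 beside 0.09 for all genes. Over the 150 member tests, 5 had an unadjusted p under 0.05, and the lowest adjusted p of limma was 0.0897, for Plvap in prednisone against healthy mice. Weighting each library by its fit to its group, an alternative added after the data were seen, called 0 members in this comparison but 5 in MMF, 4 in FK506, 1 in prednisone and 3 in multi-target mice against healthy. The same weights called 58.3%, 48.0%, 37.1% and 51.2% of all genes in those 4 comparisons. The 95% confidence intervals in diseased against healthy kidney ran from -1.06 at the lowest (Vegfa) to 0.70 at the highest (Flt1). For 8 of 10 members the interval lay within a doubling or halving (1 on the log2 scale), and for 4 it lay within 0.5. For Vegfa and Flt1 it reached just past a halving. Of the genes called in this comparison, 69.8% were higher in diseased kidney, but only 43.7% after quantile normalization, which shifted the median difference of all genes by -0.16.

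**Figure D1:**
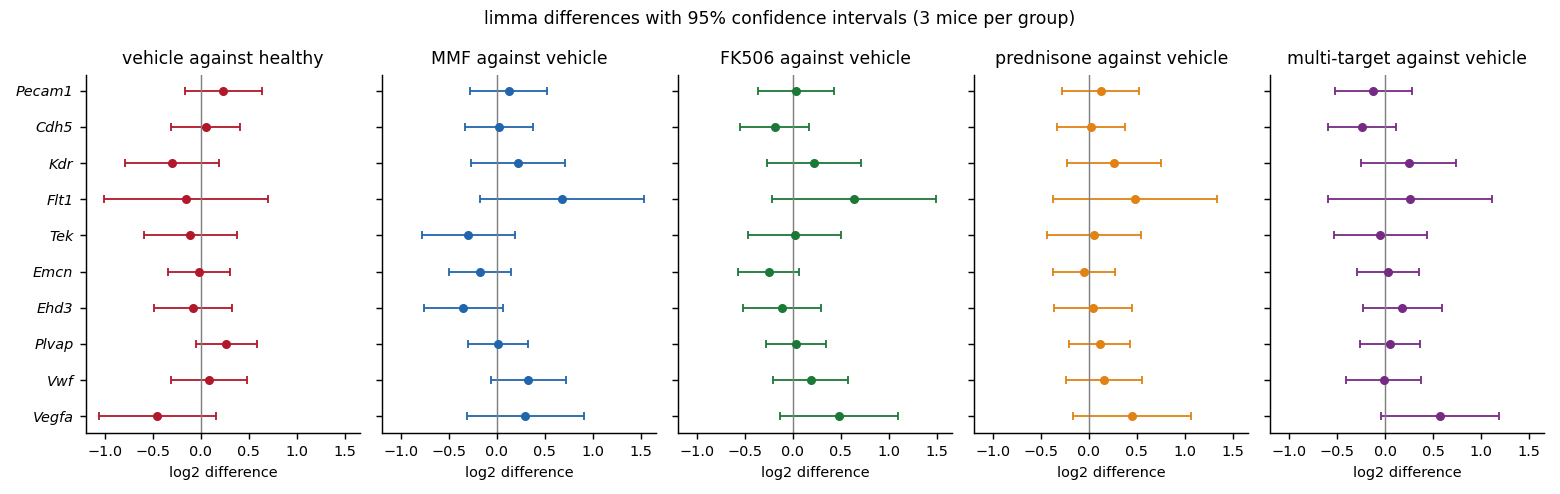
Differences in log2 expression between group means for the 10 genes, with 95% confidence intervals from limma (3 mice per group); the left panel is vehicle-treated MRL/lpr against healthy mice and the other panels are each treatment against vehicle. All 50 intervals cross 0, and those of Flt1 and Vegfa are the widest in each panel.

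Vegfa, the VEGF ligand, had no called difference, and 6 of 15 MRL/lpr mice lay within the healthy range, 4 above it and 5 below. The log2 values were 11.09, 11.13 and 11.27 in healthy mice 1, 2 and 3, and 11.10, 11.12 and 9.92 in vehicle mice 7, 17 and 36. Vehicle mouse 36 was the only low one, and vehicle mice 7 and 17 lay inside the healthy range. The mean was 10.71 ± 0.69 (SD, n = 3) in vehicle and 11.16 ± 0.10 (SD, n = 3) in healthy mice, a difference of -0.45 with an adjusted limma p of 0.266. Without vehicle mouse 36 the difference was -0.05. MMF mice 1, 14 and 27 were at 10.71, 11.08 and 11.24, and FK506 mice 3, 12 and 24 were at 11.20, 11.32 and 11.06. Prednisone mice 23, 29 and 35 were at 10.54, 11.60 and 11.33, and multi-target mice 6, 18 and 39 were at 11.36, 11.25 and 11.23. The multi-target group was thus the tightest (SD 0.07), and the prednisone mice all lay outside the healthy range, 1 below and 2 above. Group means from highest to lowest were multi-target, FK506, healthy, prednisone, MMF and vehicle, and neighbours in that order differed by less than the pooled SD within groups (0.38).

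Against vehicle, Vegfa differed by 0.30 with MMF, 0.48 with FK506, 0.45 with prednisone and 0.57 with the multi-target treatment, with adjusted limma p from 0.348 to 0.943. The 4 comparisons share the vehicle mice. All 3 multi-target mice were above all 3 vehicle mice, a separation seen upward for 7.55% of all genes in that comparison. Leaving out vehicle mouse 36 brought the 4 differences to -0.10, 0.08, 0.05 and 0.17. The lower vehicle mean of Vegfa rested on 1 library, the one with the lowest proximal tubule markers of the 18.

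Kdr, the main VEGF signalling receptor of endothelium, showed the same picture. Kdr values were 11.62, 11.48 and 11.37 in healthy mice, and 11.42, 11.52 and 10.63 in vehicle mice 7, 17 and 36. Of the vehicle mice, again only mouse 36 was below the healthy range. The difference was -0.30 (95% interval -0.79 to 0.19, adjusted limma p 0.363), and -0.02 without that mouse. Among treated mice, Kdr was at 11.16, 11.67 and 11.40 with MMF, at 11.31, 11.66 and 11.26 with FK506, at 11.20, 11.51 and 11.63 with prednisone, and at 11.70, 11.00 and 11.60 with the multi-target treatment. The 4 treated means lay between 11.41 and 11.45, beside a healthy mean of 11.49. Over all 15 MRL/lpr mice, 6 were below the healthy range, 4 above it and 5 within. Group means from highest to lowest were healthy, prednisone, multi-target, MMF, FK506 and vehicle, all within a pooled SD of 0.30 of each other.

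Flt1, the VEGF receptor with high ligand affinity, was the member that varied most between mice. Its 18 values spanned 2.003 log2 units, from 10.26 in vehicle mouse 36 to 12.26 in MMF mouse 14. The healthy mice had values of 11.10, 11.12 and 10.83, with vehicle mice at 11.26, 11.07 and 10.26, and MMF mice 1, 14 and 27 at 10.49, 12.26 and 11.87. FK506 mice 3, 12 and 24 were at 11.95, 11.69 and 10.86, prednisone mice 23, 29 and 35 at 10.84, 11.42 and 11.76, and multi-target mice 6, 18 and 39 at 11.31, 10.96 and 11.10. In the MMF, FK506 and prednisone groups 2 of 3 mice were above all healthy mice and the remaining one was not, while the multi-target mice stayed together (SD 0.18). The difference from vehicle was 0.68 with MMF (adjusted limma p 0.258), 0.64 with FK506, 0.48 with prednisone and 0.26 with the multi-target treatment. Without MMF mouse 1 the MMF difference was 1.20 with an adjusted limma p of 0.0152, in a fit that called 36.8% of all genes, so the call depends on that library. Group means ran from MMF through FK506, prednisone, multi-target and healthy to vehicle, and the steps between neighbours were smaller than the pooled SD of 0.54. A value per gene symbol does not separate the membrane and soluble forms of the receptor.

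The angiopoietin receptor Tek was lower than healthy in MMF mice without passing the test. Healthy mice were at 10.96, 10.98 and 11.15, vehicle mice at 10.97, 11.34 and 10.44, and MMF mice at 10.65, 10.44 and 10.77. All 3 MMF mice were below all 3 healthy mice, as were 16.9% of all genes. The difference was -0.41 (95% interval -0.89 to 0.08, adjusted limma p 0.209). With FK506 Tek was at 10.75, 11.22 and 10.84, with prednisone at 10.73, 11.31 and 10.87, and with the multi-target treatment at 11.13, 10.44 and 11.03. These groups overlapped the healthy one, and across all 15 MRL/lpr mice 9 were below the healthy range and 3 above it.

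**Figure D2:**
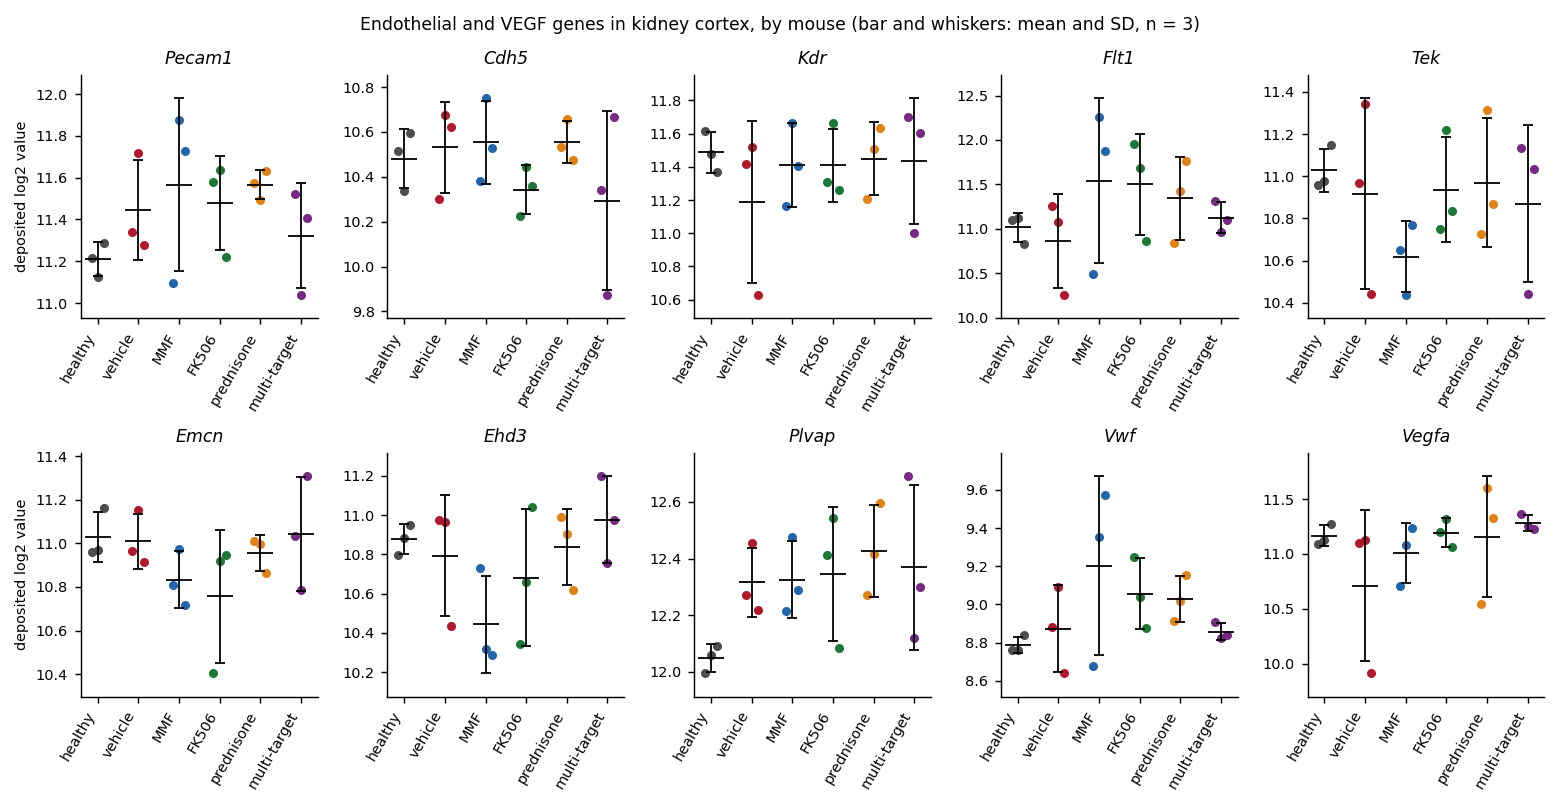
Deposited log2 value of each of the 10 genes in each of the 18 mice, by group, with the group mean and SD (n = 3 per group). Vehicle mouse 36 is the low vehicle point of Vegfa, Kdr and Flt1, and Plvap lies above the healthy mice in 14 of 15 MRL/lpr mice.

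Pecam1 (CD31, an adhesion molecule of endothelial junctions that platelets and leukocytes also carry) tended to lie above healthy. Healthy mice were at 11.22, 11.13 and 11.29, vehicle mice at 11.34, 11.72 and 11.28, and prednisone mice at 11.57, 11.49 and 11.63. MMF mice 1, 14 and 27 were at 11.10, 11.88 and 11.73, FK506 mice at 11.58, 11.63 and 11.22, and multi-target mice at 11.52, 11.04 and 11.41. In all, 11 of 15 MRL/lpr mice were above the highest healthy mouse and 2 were below the lowest, a count not made for all genes. Only the prednisone group was separate from healthy, as 36.9% of all genes were in that direction, with a difference of 0.35 (adjusted limma p 0.1999). When only those 2 groups were fitted, the same difference had an adjusted limma p of 0.0208. Leukocyte markers moved with it: their summed level was 12.71 to 12.77 in healthy and 13.65 to 14.73 in prednisone mice, and their part in the Pecam1 values was not tested.

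Cdh5, the VE-cadherin of endothelial junctions and not a leukocyte gene, stayed near the healthy level. Cdh5 stood at 10.51, 10.34 and 10.59 in healthy mice and at 10.30, 10.68 and 10.62 in vehicle mice, a difference of 0.05 (95% interval -0.31 to 0.41, adjusted limma p 0.851). Treated mice were at 10.38, 10.75 and 10.53 with MMF, at 10.23, 10.44 and 10.36 with FK506, at 10.53, 10.66 and 10.47 with prednisone, and at 10.34, 9.87 and 10.67 with the multi-target treatment. The single low value, 9.87, was multi-target mouse 18, in which all 10 members were below the mean of the other 2 multi-target mice. The 6 group means spanned only 0.26, about the pooled SD within groups (0.21). All 3 FK506 mice were below all 3 prednisone mice, as were 7.54% of all genes.

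Emcn, the endomucin of capillary and venous endothelium, had the smallest disease difference of the 10. Emcn stood at 10.96, 10.97 and 11.16 in healthy mice and at 10.96, 11.15 and 10.91 in vehicle mice, a difference of -0.02 (95% interval -0.34 to 0.30, adjusted limma p 0.937). FK506 mice 3, 12 and 24 were at 10.41, 10.92 and 10.95, all below all healthy mice, as were 16.1% of all genes. That FK506 difference was -0.27 (adjusted limma p 0.272). MMF mice were at 10.81, 10.98 and 10.72, prednisone mice at 11.01, 11.00 and 10.86, and multi-target mice at 11.03, 10.79 and 11.31, each group overlapping the healthy one.

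Ehd3, an endocytic trafficking gene that in the kidney marks glomerular endothelium, was lower in MMF mice than in most others. Healthy mice were at 10.80, 10.88 and 10.95, vehicle mice at 10.98, 10.97 and 10.44, and MMF mice 1, 14 and 27 at 10.73, 10.32 and 10.29. All 3 MMF mice were below all healthy mice, as were 16.9% of all genes, but overlapped vehicle mouse 36. Multi-target mice, at 11.20, 10.75 and 10.98, were all above all MMF mice, as for 4.97% of all genes. FK506 mice were at 10.34, 10.66 and 11.04, on both sides of the healthy range. Prednisone mice were at 10.99, 10.91 and 10.62, with only the value of 10.91 inside that range. The MMF difference from healthy was -0.43 (95% interval -0.84 to -0.02, unadjusted p 0.0396, adjusted limma p 0.122). The multi-target difference from MMF was 0.53 (95% interval 0.12 to 0.94), with an adjusted limma p of 0.641 in a comparison where 0% of genes were called and 1126 had an unadjusted p under 0.05. Both reached the threshold without MMF mouse 1, at -0.58 (adjusted limma p 0.0371) and 0.67 (adjusted limma p 0.0361), where 38.6% and 16.8% of all genes were called.

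Plvap, the protein of the diaphragms that span capillary fenestrae and a target of VEGF signalling, had the smallest spread within groups of the 10. Healthy mice were at 11.996, 12.06 and 12.09, and vehicle mice at 12.27, 12.45 and 12.22. All vehicle mice lay above all healthy mice, as did 32.6% of all genes in that comparison. MMF mice were at 12.21, 12.48 and 12.29, FK506 mice at 12.41, 12.54 and 12.08, prednisone mice at 12.27, 12.42 and 12.60, and multi-target mice at 12.69, 12.12 and 12.30. Thus 14 of 15 MRL/lpr mice were above the highest healthy mouse, and FK506 mouse 24 alone was inside the healthy range. For 13.3% of all genes all 15 were above all healthy mice, and the share with at least 14 was not counted. The MMF, prednisone and multi-target groups were also wholly above healthy, as were 23.1%, 36.9% and 30.1% of all genes. The difference from healthy was 0.27 in vehicle (adjusted limma p 0.202), 0.28 with MMF, 0.30 with FK506, 0.38 with prednisone (unadjusted p 0.0219) and 0.32 with the multi-target treatment (unadjusted p 0.0468). These 5 comparisons share the healthy mice.

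When the 5 MRL/lpr groups were averaged and set against healthy, a contrast added after the data were seen, the Plvap difference was 0.31 (95% interval 0.06 to 0.55, adjusted limma p 0.0599), and 0 of 10 members were called while 26.2% of all genes were. The adjusted p came to 0.0431 without MMF mouse 1, 0.0325 without FK506 mouse 24 and 0.0387 without multi-target mouse 18, and to between 0.136 and 0.205 without any 1 healthy mouse. Pecam1 followed at 0.26 (adjusted limma p 0.188) and Vwf at 0.22 (adjusted limma p 0.277). Between MRL/lpr groups Plvap differed little: the 5 means lay between 12.32 and 12.43, less than the pooled SD of 0.18, and against vehicle the 4 treatment differences were 0.01 to 0.11. On a scale set by 20 other pan-endothelial markers the Plvap difference turned to -0.06, because those markers were 0.31 to 0.49 higher in the MRL/lpr groups than in healthy mice.

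Vwf, the von Willebrand factor of larger vessels and platelets, was above the highest healthy mouse in 12 of 15 MRL/lpr mice. That count was not made for all genes. Vwf stood at 8.76, 8.76 and 8.84 in healthy mice, with vehicle mice at 8.88, 9.09 and 8.64, and MMF mice 1, 14 and 27 at 8.68, 9.36 and 9.57. FK506 mice were at 9.25, 9.04 and 8.88, prednisone mice at 8.91, 9.02 and 9.15, and multi-target mice at 8.91, 8.83 and 8.84. The FK506 and prednisone mice were above all healthy mice (as were 30.1% and 36.9% of all genes), whereas the multi-target mice overlapped the healthy ones and were below all prednisone mice (as were 8.42% of all genes). The MMF difference from healthy was 0.41 (unadjusted p 0.0406, adjusted limma p 0.124), and 0.68 without MMF mouse 1 (adjusted limma p 0.00289). Without that mouse Vwf also differed from vehicle by 0.59 (adjusted limma p 0.0067) and multi-target from MMF by -0.61 (adjusted limma p 0.0115), where 36.8% and 16.8% of all genes were called. Of the 3 platelet markers measured besides Vwf, Itgb3 was called higher in diseased than in healthy kidney by 1.26 (adjusted limma p 0.0274), and Gp1ba and Itga2b were not called. In MMF against healthy mice Gp1ba was the 1 of the 3 called, higher by 0.96 (adjusted limma p 0.0316), with MMF mice 1, 14 and 27 at 6.75, 7.54 and 7.87. Its part in the Vwf values was not tested. The Itgb3 call was lost without vehicle mouse 36 (0.74, adjusted limma p 0.142) or any 1 healthy mouse.

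Counts of called members in the remaining comparisons were 0 of 10 throughout. Against healthy mice, limma called 15.9% of all genes with MMF, 7.27% with FK506, 16.7% with prednisone and 6.98% with the multi-target treatment. The share of those calls that were higher was 60%, 78.8%, 80.3% and 76.4%, and 47.0%, 53.4%, 46.7% and 50.5% after quantile normalization. Members with an unadjusted p under 0.05 numbered 2, 0, 1 and 1 in the same order. Against vehicle, 1.58% of all genes were called with MMF and 0% with each of the other 3 treatments, where 2987 (FK506), 474 (prednisone) and 2341 (multi-target) genes had an unadjusted p under 0.05 and none of the members did. Among the treated groups, only Ehd3 between multi-target and MMF had an unadjusted p under 0.05, and 0% of all genes were called in each of those 6 comparisons, where 61 to 2058 genes had an unadjusted p under 0.05.

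**Figure D3:**
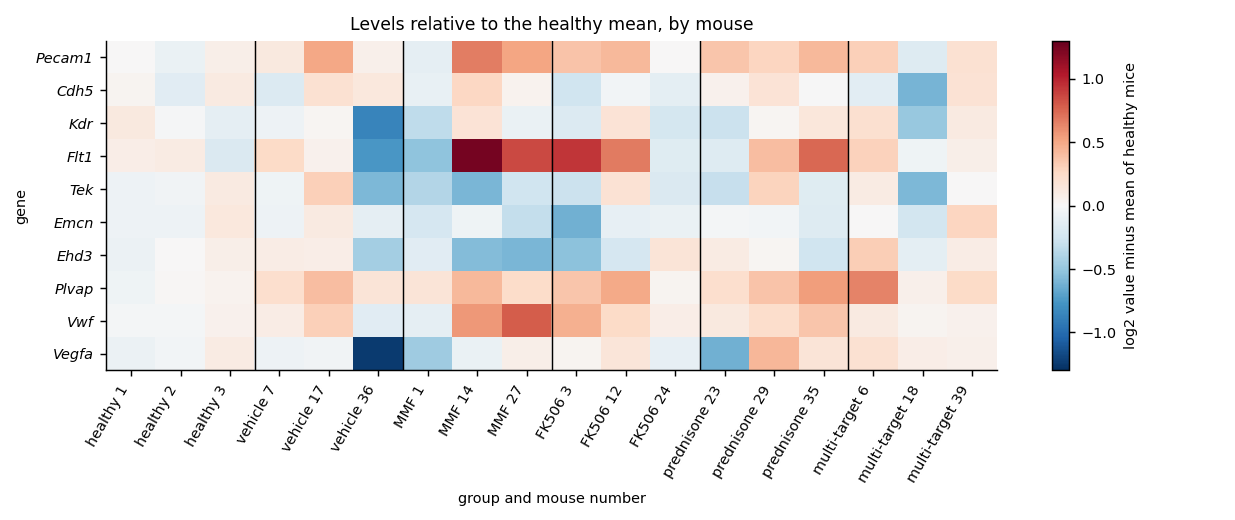
Log2 value of each gene in each mouse minus the mean of the 3 healthy mice, as a colour scale, with mice in columns by group. Plvap is above 0 in 15 of 15 MRL/lpr mice, while vehicle mouse 36, MMF mouse 1 and multi-target mouse 18 hold runs of low values across several genes.

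In some libraries most members lay on the same side of the mean of their group's other mice. How far the 10 move together was not measured. In vehicle mouse 36, 9 of 10 members were below the mean of vehicle mice 7 and 17: Vegfa by -1.20, Flt1 by -0.91, Kdr by -0.84, Tek by -0.72 and Ehd3 by -0.54. Cdh5 was the exception at 0.13. The 20 pan-endothelial markers were not low there, with a mean log2 of 9.08 against 9.05 and 9.29, and the activation and adhesion list was highest there, at a summed 15.41 against 13.01 and 13.09. Some of the pan-endothelial markers, such as Cd93 and Fli1, are also expressed by blood cells. Leukocyte markers were the highest of the vehicle group in this library, at a summed 14.80, and their part was not tested. In MMF mouse 1, 8 of 10 members were below the mean of the other MMF mice, led by Flt1 (-1.57), Vwf (-0.79) and Pecam1 (-0.71). Ehd3 was higher there (0.43). In multi-target mouse 18 all 10 were below the mean of the other multi-target mice, by -0.04 to -0.65. In vehicle mouse 17, the library with adipose transcripts, all 10 were above the mean of vehicle mice 7 and 36, by 0.21 to 0.64.

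A pair of within-library differences, chosen after the data were seen, cancels what shifts a whole library. Plvap minus Ehd3 sets the fenestral diaphragm gene of peritubular capillaries against a glomerular one. It was 1.20, 1.18 and 1.14 in healthy mice, and 1.296, 1.49 and 1.78 in vehicle mice. Over all 15 MRL/lpr mice the mean was 1.61 ± 0.34 (SD, n = 15) against 1.17 ± 0.03 (SD, n = 3) in healthy mice. Of the 15, 14 were above all healthy mice, and FK506 mouse 24 (1.04) was below them. The exact permutation p (two-sided) was 0.0221, and 0.265 after Benjamini-Hochberg adjustment over the 12 such tests run, so it did not pass. Vehicle against healthy alone gave an exact permutation p of 0.1, the smallest that 3 against 3 allows. Flt1 minus Kdr was -0.10 ± 0.41 (SD, n = 15) in MRL/lpr and -0.47 ± 0.10 (SD, n = 3) in healthy mice, with an exact permutation p of 0.113 (two-sided, adjusted 0.451).

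For Kdr, Plvap and Vegfa, the genes with the most similar pattern over the 18 libraries were found by the root mean square difference of log2 values after each gene was centred on its own mean. Nearest to Plvap was Tie1, an endothelial receptor related to Tek, at 0.0843, followed by Arv1 (0.121) and Slc4a10 (0.125), where the median of all genes was 0.300. Nearest to Kdr were Klkb1 (0.146), Cadm2 (0.165) and Epas1, the hypoxia-inducible factor 2 alpha gene that endothelium expresses strongly (0.169), with a median of 0.370. Nearest to Vegfa were Entpd8 (0.144), Fgfr3 (0.146) and Sv2a (0.170), with a median of 0.444. Genes that vary little are near any flat gene by this measure.

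The counts of other pathway and marker lists that follow stand beside the 22.4% of all genes called in diseased against healthy kidney. Of 6 further VEGF ligands and receptors measured, 1 was higher in diseased than in healthy kidney, 0 were lower and 5 were not called. The higher one was Figf (VEGF-D, a ligand of VEGFR3), at 8.33, 8.28 and 8.17 in healthy and 9.01, 9.13 and 9.18 in vehicle mice, a rise of 0.85 ± 0.15 (SE) with an adjusted limma p of 0.00133. Its treated means were 8.62 with MMF, 8.68 with FK506, 8.73 with prednisone and 8.77 with the multi-target treatment, between the healthy and the vehicle mice, and none differed from vehicle by the test (MMF -0.48, adjusted limma p 0.0760). With prednisone Figf was higher than healthy by 0.47 (adjusted limma p 0.0442), a call lost when any 1 mouse was left out. Flt4 (VEGFR3), Nrp2 (a co-receptor) and Vegfc differed between diseased and healthy kidney by 0.55, 0.38 and -0.27, and none passed.

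Among 20 genes that signal downstream of VEGF receptors or with Notch, 7 were higher in diseased kidney and 0 lower, with a median of 0.31 beside 0.09 for all genes. They included Sh2d2a (2.75, an adaptor also found in T cells), Prkcb (1.73, a protein kinase C abundant in leukocytes), Notch1 (0.59), and, outside the naming rule and chosen after their values were seen, Hspb1 (2.06), Mapkapk2 (0.79) and Shb (0.47). Leukocyte markers moved with this list, with 9 of 12 higher in diseased kidney and summed levels of 14.04 to 14.80 in vehicle against 12.71 to 12.77 in healthy mice. Their part in it was not tested. Without vehicle mouse 36, 4 of the 20 were higher and 1 lower. Of 5 genes of the angiopoietin and Tie axis, Svep1 (an extracellular ligand of Tie1) was higher by 0.94 (adjusted limma p 0.0175), a call lost without healthy mouse 2 or vehicle mouse 36, and Angpt1, Angpt2 and Tie1 differed by -0.29, 0.55 and 0.14 without passing.

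Of 20 pan-endothelial markers outside the 10, 18 had a positive difference and 3 were called higher, 0 lower, with a median of 0.29, so the share called (3 of 20) was below that of all genes. Cd93, a lectin-like receptor of endothelium and myeloid cells, was at 9.07, 9.57 and 9.40 in healthy and 10.53, 10.84 and 10.62 in vehicle mice, a rise of 1.32 ± 0.18 (SE) with an adjusted limma p of 0.000182. Fli1, a transcription factor of endothelium and blood cells, rose by 0.83 (adjusted limma p 0.00491) and Rasip1, a regulator of vessel lumen formation, by 0.46 (adjusted limma p 0.0148). Cd93 was also higher than healthy in every treated group, by 0.96 with MMF, 1.02 with FK506, 1.28 with prednisone and 1.09 with the multi-target treatment. It stayed called in each of these 5 comparisons under all 11 alternatives counted, which leave out the scaling to the pan-endothelial markers. All 15 MRL/lpr mice were above all healthy mice for Cd93, as for 13.3% of all genes. Rasip1 lost its disease call under quantile normalization (0.20, adjusted limma p 0.281) and without healthy mouse 2 or 3 (adjusted limma p 0.0637 and 0.0541). In the treated groups the same list had 6, 5, 6 and 4 of 20 members higher than healthy and 0 lower, in the order MMF, FK506, prednisone and multi-target, where 15.9%, 7.27%, 16.7% and 6.98% of all genes were called in either direction.

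Markers of vessel segments were mostly not called. Of 7 glomerular endothelial markers besides Ehd3, Plat (tissue plasminogen activator) was higher in disease by 0.71 (adjusted limma p 0.0286), a call lost without any 1 healthy mouse or without vehicle mouse 36, and Nostrin, Lpl and Ramp3 differed by 0.56, -1.06 and 0.42. None of 7 arterial markers was called (0 higher, 0 lower), with Jag1 nearest at 0.37 (adjusted limma p 0.0546). Of 5 lymphatic markers, Pdpn (1.37) and Lyve1 (2.24) were higher, both calls lost under quantile normalization, and Pdpn is also a podocyte gene. Without vehicle mouse 36 Pdpn differed by 0.86 (adjusted limma p 0.149), and without vehicle mouse 17 Lyve1 differed by 1.13 (adjusted limma p 0.178). Both were also lost without any 1 healthy mouse. Lyve1 in vehicle mouse 17, the library with adipose transcripts, was at 7.50, with the other two of that group at 3.78 and 4.55.

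Of 10 genes of endothelial activation and leukocyte adhesion, 4 were higher and 1 lower in diseased kidney. Vcam1 was at 9.18, 9.67 and 9.86 in healthy and at 11.57, 11.84 and 15.01 in vehicle mice, a rise of 3.24 (adjusted limma p 0.0103), where vehicle mouse 36 is the extreme one. With only the 2 groups fitted its adjusted limma p was 0.0506. Icam1 rose by 1.84 (adjusted limma p 0.00242) and Lrg1, a glycoprotein that modifies TGF-beta signalling in vessels, by 2.66 (adjusted limma p 0.00806). Sele (E-selectin, named outside the rule to complete the count) rose by 1.01 (adjusted limma p 0.0149). Vcam1 and Icam1 are also made by tubule and immune cells, so bulk values do not place the change in endothelium.

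Esm1 (endocan), a proteoglycan secreted by endothelium and regulated by VEGF, was the 1 gene of that list that fell. Healthy mice were at 11.24, 10.98 and 11.13 and vehicle mice at 8.94, 9.23 and 8.22, a fall of 2.32 ± 0.58 (SE) with an adjusted limma p of 0.0122. It was also lower in each treated group, with a difference from healthy of -1.91 with MMF (adjusted limma p 0.0395), -2.62 with FK506 (adjusted limma p 0.0174), -2.67 with prednisone (adjusted limma p 0.00769) and -2.90 with the multi-target treatment (adjusted limma p 0.0115). The highest of the 15 MRL/lpr values was 9.87 (multi-target mouse 39), below the lowest healthy value, as for 6.66% of all genes. Each treated group overlapped the vehicle group. The call in vehicle mice was lost without vehicle mouse 36 (adjusted limma p 0.0657). It was lost under 7 of the 11 alternatives with MMF, 6 with FK506 and 3 with the multi-target treatment, and under none with prednisone. These 11 leave out the scaling to the pan-endothelial markers.

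**Figure D4:**
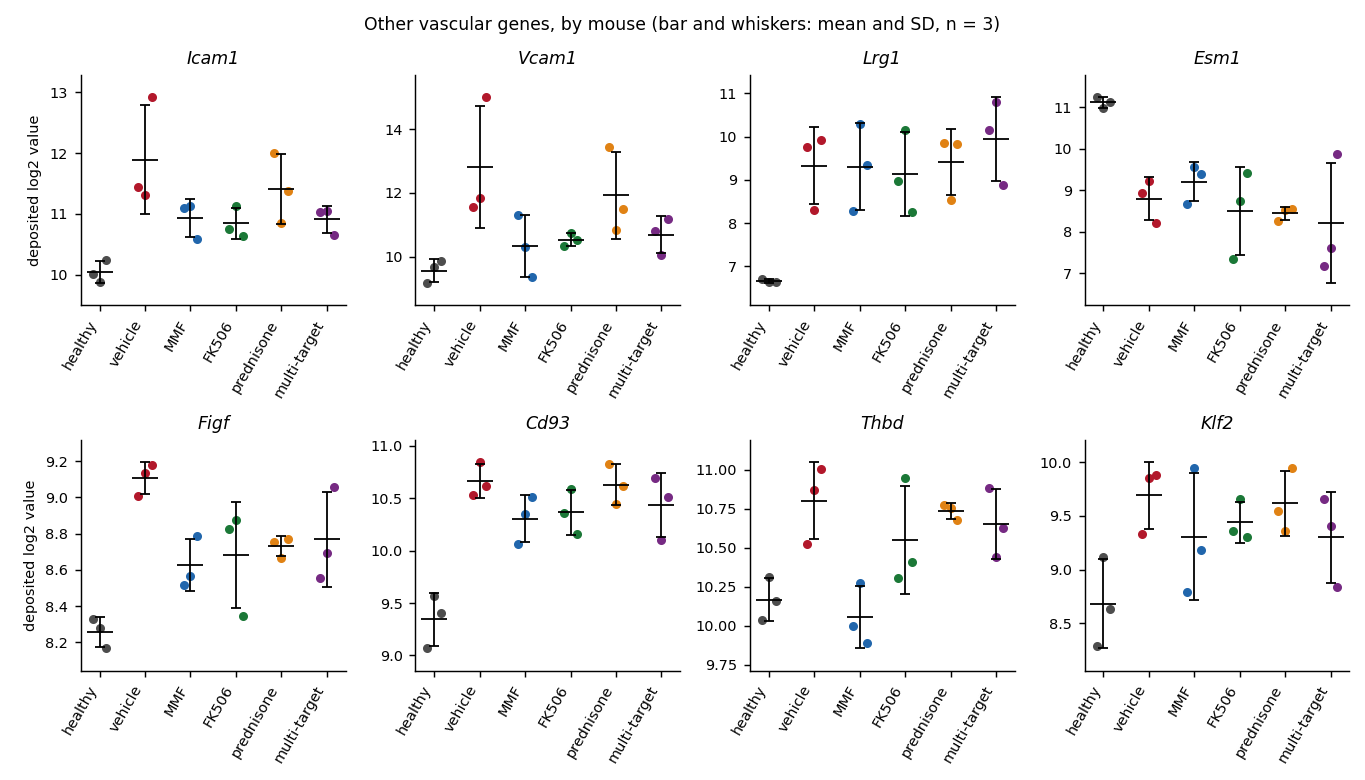
Deposited log2 values by mouse and group of 8 vascular genes outside the 10, with the group mean and SD (n = 3 per group); the genes were taken from those named in the text. Esm1 is below all healthy mice in all 15 MRL/lpr mice and Lrg1 and Cd93 are above them, while Icam1 and Vcam1 peak in vehicle mouse 36.

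Of 12 anticoagulant and vasoactive genes of endothelium, 4 were higher and 1 lower in diseased kidney. Klf4 rose by 1.43 (adjusted limma p 0.0154) and Klf2 by 1.01 (adjusted limma p 0.0253), both flow-responsive transcription factors. Thbd (thrombomodulin, a cofactor for protein C activation) rose by 0.63 (adjusted limma p 0.0181) and Procr (the protein C receptor, named outside the rule to complete the count) by 1.15 (adjusted limma p 0.0318). Ece1, which makes active endothelin, fell by 0.51 (adjusted limma p 0.0268). Without vehicle mouse 36 none of Klf4, Klf2, Thbd and Ece1 kept its call, with adjusted limma p of 0.0926, 0.107, 0.0946 and 0.117. Single healthy mice also ended calls: mouse 3 for Klf4, mice 1 and 3 for Klf2 and Thbd, and any of the 3 for Ece1. Klf2 also lost its call under quantile normalization (0.78, adjusted limma p 0.0618). The same held without vehicle mouse 17, alone (adjusted limma p 0.0632) or with FK506 mouse 12 (adjusted limma p 0.0743). Thbd was the 1 gene of these vascular lists that was called in a treatment against vehicle. It was at 9.9998, 10.27 and 9.89 in MMF mice against 10.53, 10.87 and 11.01 in vehicle mice, a fall of 0.75 (adjusted limma p 0.0486). All 3 MMF mice were below all vehicle mice, as for 12.4% of all genes. That call sits at the threshold and was lost under 4 of the alternatives and without 4 of the 6 mice singly. In the same comparison 4 of 12 leukocyte markers fell, and their part was not tested.

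Hypoxia-response genes, which include regulators of Vegfa, were not called in disease: 0 of 13 were higher and 0 lower, with a median of -0.09. Egln1, an oxygen sensor, was nearest at -0.33 (adjusted limma p 0.0537). Of 10 angiogenesis inhibitors, Cxcl10 (3.77), Cxcl9 (4.38) and Serpinf1 (1.42) were higher and Timp3 (-0.79) lower. Timp3 and Serpinf1 lost their call without vehicle mouse 36 (adjusted limma p 0.128 and 0.0773), and Cxcl9 without healthy mouse 1 (0.0585). Timp3 also lost it under quantile normalization (adjusted limma p 0.177), with only the 2 groups fitted, and without vehicle mouse 7 or any 1 healthy mouse. Serpinf1 also lost it without healthy mouse 1 (adjusted limma p 0.0509). The chemokines among these inhibitors are interferon-induced genes of many cell types. Podocytes, a source of Vegfa, had 4 of 12 markers higher and 0 lower, among them Nes at 1.53 and Ptpro at 0.49. Proximal tubule had 3 of 12 lower and 0 higher (Cyp4b1 -1.43, Miox -1.74 and Slc34a1 -1.12), and thick ascending limb and distal tubule 1 of 9 lower (Calb1 -1.22). Ptpro, Miox and Slc34a1 lost their calls without vehicle mouse 36 (adjusted limma p 0.0805, 0.168 and 0.219), and Calb1 with only the 2 groups fitted (0.0705). Miox and Slc34a1 also lost theirs without any 1 healthy mouse, Miox under quantile normalization and without vehicle mouse 7. Slc34a1 lost its call under the filter and with only the 2 groups fitted. Ptpro lost its call under quantile normalization, without healthy mouse 1 or 2, and without vehicle mouse 17, alone or with FK506 mouse 12. Pericyte and smooth muscle markers had 5 of 10 higher, among them Tagln (2.07) and Mcam (1.10), a gene endothelium also expresses. Leaving out single mice gave 2 to 6 higher. Pdgfrb and Acta2, also among the 5, lost their calls without vehicle mouse 36 (adjusted limma p 0.103 and 0.173). Pdgfrb also lost its call without healthy mouse 2. Acta2 also lost its call with only the 2 groups fitted, and without vehicle mouse 17 or any 1 healthy mouse.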

How the data were processed

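Kidney cortex RNA from 18 libraries (6 groups of 3) was sequenced with a TruSeq library kit, per the labels' protocols. For each library the authors deposited log2 expression values per gene symbol, already normalized. The submitters' processing notes name limma and mm10. Which aligner and gene models were used is not given in the sources used here. In 75.0% to 75.5% of genes the deposited log2 values gave whole reads within 0.001, which gave the depth of each library. Tek and Vegfa were not among these genes, nor were Pecam1 and Emcn. How such values were combined from reads is not given, so their reads are estimates. Squared, the reads were whole within 0.05 in 18 libraries for Emcn and 16 for Pecam1, but in 1 each for Tek and Vegfa. Of 2221 genes without whole reads that could be checked, 56.0% had whole squares in at least 17 libraries. A single value passes by chance in 10% of cases. What these values stand for was not tested. Symbols in 23 rows had been turned into dates, and these rows keep the names as deposited.

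Without pseudocount or filter, these values entered limma 3.58.1 (R 4.3.3) with an intensity trend, group means of the 18 libraries and 12 residual degrees of freedom. All 15 pairs of groups were compared, and p-values were adjusted by Benjamini-Hochberg over all 15035 genes, called at 0.05. Libraries were checked for identical values and the fit was tested on simulated data. Within-library differences were tested by exact permutation (scipy 1.17.1, Python 3.11.15).

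The 10 genes and the other gene lists were chosen with earlier results of these data known. Named genes were all 10 members, up to 4 genes per list with the smallest p in vehicle against healthy mice, and the 3 genes nearest in pattern to Kdr, Plvap and Vegfa. Genes named beyond that were chosen after their values were seen. Some genes that the rule names are not reported here. Coordinates are from GENCODE vM21 and promoters from RefSeq (GRCm38.p6). Alternatives were a filter on the lowest 25% of genes, quantile normalization, scaling to the pan-endothelial markers, fitting only the 2 groups, leaving out vehicle mouse 17 with FK506 mouse 12, and leaving out each mouse. Library weights and the average of all MRL/lpr groups were added after seeing the data. Counts of calls kept or lost by genes outside the 10 leave out the marker scaling.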

Additional observations from a re-analysis of the deposited data

How the results depend on the processing

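The count of members called moved from 0 under some settings, and the cause was not tested. Scaled to the pan-endothelial markers, 2 were called in vehicle against healthy (Kdr -0.64 and Vegfa -0.79), 3 with MMF, 2 with FK506, 4 with prednisone and 1 with the multi-target treatment against healthy, and 5 over all MRL/lpr mice. That scaling called 31.1%, 28.1%, 19.4%, 39.2%, 13.2% and 43.1% of all genes in the same order. With library weights the counts against healthy were 5 (MMF), 4 (FK506), 1 (prednisone), 3 (multi-target) and 4 (all MRL/lpr); 3 for MMF against vehicle, 3 for multi-target against MMF and 1 for MMF against FK506. The weights called 58.3%, 48.0%, 37.1%, 51.2%, 63.3%, 41.0%, 34.9% and 18.2% of all genes in that order. Fitting only the 2 groups called 2 in prednisone against healthy, with 27.3% of all genes. Leaving out single mice gave 0 to 4 for MMF against healthy, 0 to 2 for MMF against vehicle and for multi-target against MMF, 0 to 1 for MMF against prednisone and 0 to 3 over all MRL/lpr mice, the highest each time without MMF mouse 1, where 38.6%, 36.8%, 16.8%, 16.1% and 35.8% of all genes were called.

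Signs of small differences turned. In vehicle against healthy, the marker scaling gave Pecam1 -0.10, Cdh5 -0.29, Plvap -0.070 and Vwf -0.25, and quantile normalization gave Cdh5 -0.092 and Vwf -0.20. Without vehicle mouse 17 and FK506 mouse 12 they were -0.020 (Cdh5) and -0.026 (Vwf), and library weights gave Flt1 0.066, Tek 0.10, Emcn 0.029 and Ehd3 0.050. Leaving out single mice ranged from -0.021 to 0.17 for Cdh5, -0.35 to 0.15 for Flt1, -0.32 to 0.13 for Tek, -0.092 to 0.046 for Emcn, -0.17 to 0.10 for Ehd3, -0.026 to 0.20 for Vwf, and -0.10 to 0.50 for Vegfa in MMF against vehicle. Marker scaling also turned Plvap against healthy with MMF (-0.059), FK506 (-0.072), prednisone (-0.11) and all MRL/lpr (-0.061), Pecam1 with FK506 (-0.10), prednisone (-0.14), multi-target (-0.20) and all MRL/lpr (-0.10), and Vwf over all MRL/lpr (-0.15).

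Over the same settings the genes called ranged from 1490 to 5037 in vehicle against healthy and from 0 to 6158 in MMF against vehicle. Figf, Cd93, Fli1, Icam1 and Lrg1 kept their call in vehicle against healthy under every alternative counted for them, which leaves out the marker scaling. No paired analysis was possible because mouse numbers do not pair samples between groups.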

Other observations

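Against vehicle, MMF mice had all 10 measured angiogenesis inhibitors at a lower mean, with a median of -1.09 beside -0.05 for all genes, and 0 passed the limma test. The mean log2 over the list was 10.15, 9.44 and 9.10 in MMF mice 1, 14 and 27, and 10.14, 10.84 and 11.58 in vehicle mice 7, 17 and 36, so MMF mouse 1 lay beside vehicle mouse 7. Leukocyte markers moved with it, with 4 of 12 called lower and summed levels of 12.66 to 13.69 in MMF and 14.04 to 14.80 in vehicle mice, and their part was not tested. The 13 hypoxia-response genes had a median of 0.59 in the same comparison, with 9 above 0 and 0 called. Their mean log2 was 11.09, 11.81 and 11.66 in MMF mice 1, 14 and 27, and 11.14, 11.16 and 10.84 in vehicle mice 7, 17 and 36, so MMF mouse 1 was not above vehicle mice 7 and 17. Of the 2 markers of high endothelial venules measured, Ch25h was higher in diseased than in healthy kidney by 3.46 (adjusted limma p 0.00160). Madcam1 differed by 1.78 without passing, and Glycam1, Chst4 and Fut7 of that list were not measured. Leukocyte markers were higher in diseased kidney too, at summed levels of 14.04 to 14.80 in vehicle and 12.71 to 12.77 in healthy mice. Their part in the Ch25h difference was not tested.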
